A study of Mus musculus with 10 samples.

Results

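The suppressors of cytokine signaling (SOCS) form a small family of inhibitors, which in the mouse are encoded by *Socs1* to *Socs7* and *Cish*. These 8 genes, the growth hormone receptor gene *Ghr* and the transcription factor gene *Stat5b* were taken from the count table by their symbols, which gave 10 genes of 52227. The group was chosen by the values of *Socs2*, which had the smallest p value of the 21664 genes tested between the genotypes and whose libraries did not overlap. All 10 genes passed the filter on low counts. Their differences between genotypes are therefore a description. Where the fit across all genes called a member, the call is stated as part of that description and supports nothing. RNA came from the cortical hem (CH), a signaling center at the dorsal midline of the embryonic telencephalon, at e13.5. Wild type for *Lmx1a* were 5 embryos, and 5 were *Lmx1a*-/-, homozygous for the *drJ* point mutation, which leaves an *Lmx1a* transcript in place. Both genotypes carried the same mixed background of C57Bl6, FVB and CD1. The CH was laser captured from frozen sections under bright light, with its boundaries read from *Lmx1a* immunostaining of neighboring sections, and the sections of 1 embryo made 1 library with a SMARTER kit, so each library is a separate embryo.

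Cytokines and growth hormone bind receptors that lack a kinase of their own. The receptors work through Janus kinases (JAK), which phosphorylate STAT factors, and these enter the nucleus and activate genes that include several *Socs* genes, so that the pathway limits itself. SOCS proteins bind phosphorylated receptors or kinases through an SH2 domain, and their SOCS box recruits an elongin and cullin ubiquitin ligase. *Socs2* is best known as the restraint on growth hormone signaling, and mice without it grow large. In the nervous system, growth hormone receptor signaling and *Socs2* have been tied to the balance between neurons and glia.

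Because several of these genes are themselves classical STAT targets, their promoters were searched for the letters TTCNNNGAA, the core of a STAT site, which reads the same on both strands. RefSeq promoters of GRCm38.p6, which span 250 bases before to 50 bases after each start, were at hand for 6 of the 10 genes. Those of *Socs2*, *Socs5*, *Socs6* and *Socs7* were missing, so these genes were not searched. *Socs3* and *Cish* held the motif, and the 30 bases around it are shown, 5′ to 3′ on the gene's strand, with the motif in capitals.

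Socs3, chr11:117969501-117969530, minus strand: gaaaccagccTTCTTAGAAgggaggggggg

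Cish, chr9:107296654-107296683, plus strand: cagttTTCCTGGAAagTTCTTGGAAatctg

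The *Socs3* match began at position -154 from the start of the transcript. The pair of *Cish* matches, which do not overlap, began at positions 1 and 12. The searched promoters of *Socs1*, *Socs4*, *Ghr* and *Stat5b* held no match. Of all 32851 RefSeq promoters of this length, 2726 (8.3%) held the motif. These matches are letters in a window and were not tested as binding sites.

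Each library held 19145952 to 36462780 counts on genes. *Lmx1a* itself had a level of 71.2 ± 18.2 CPM in wild-type embryos and of 114 ± 21.0 CPM in mutants (SD, n = 5 each). CPM, the unit of the levels given here, are counts relative to library size after TMM scaling. Because the point mutation cannot be read from counts per gene, this level does not check the labels. *Xist*, from the inactive X chromosome, stood at 4399 to 5169 CPM in wild-type embryos 2 to 5 and at no more than 1.15 CPM in wild-type embryo 1 and in each *Lmx1a*-/- embryo. *Uty*, *Kdm5d*, *Eif2s3y* and *Ddx3y*, which are Y-linked, showed the reverse, so sex and genotype cannot be told apart outside wild-type embryo 1. Of the 9 CH markers listed, 4 were called lower, among them *Lmo2* and *Wnt2b*, and 1, *Lmx1a*, was called higher. The summed markers of choroid plexus epithelium stood at 99.6 to 451 CPM in the wild type and 129 to 194 CPM in *Lmx1a*-/- libraries. Wild-type embryo 3 was the lowest, and the other wild-type embryos, at 245 CPM or more, were above every mutant. Those of Cajal-Retzius cells did not overlap, at 317 to 515 CPM in wild-type and 208 to 306 CPM in mutant libraries. Of the 9 choroid plexus markers tested, 2 were called lower, *Ttr* (log2 fold change -3.42) and *Calml4* (-1.37). Of the 7 Cajal-Retzius markers tested, 3 were called lower, *Reln*, *Trp73* and *Lhx1*, and 1, *Lhx5*, was called higher. The summed red blood cell markers did not overlap, at 632 to 1473 CPM in wild-type and 267 to 573 CPM in mutant libraries, although 0 of the 8 tested were called. The summed cortical neuroepithelium markers stood at 674 to 1193 CPM in wild-type and 1102 to 1488 CPM in mutant libraries, with *Emx2* called higher of 8. The part of these cell types in the results was not tested. No gene of the marker lists was at 0 in all libraries. In bulk tissue such as this, fewer cells of a type and less RNA per cell cannot be told apart.

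*Socs2* (ENSMUSG00000020027), which lies on the minus strand of chromosome 10 at 95385362 to 95417180 in GRCm38, was abundant in the wild-type CH and much lower in *Lmx1a*-/- embryos. In wild-type embryos 1 to 5 it stood at 259.5, 213, 211, 201 and 225 CPM. In *Lmx1a*-/- embryos 1 to 5 it stood at 77.0, 91.5, 71.5, 82.7 and 78.3 CPM. The lowest wild-type library was thus above the highest mutant library, with no library in the gap between 201 and 91.5 CPM. The means were 222 ± 22.7 and 80.2 ± 7.46 CPM (SD, n = 5 each), a 2.77-fold lower level, or 36.1% of wild type. The log2 fold change was -1.47 with an SE of 0.09. These values rest on 3871 to 7169 counts in each wild-type library and 1683 to 2985 in each mutant library.

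The coefficient of variation of *Socs2* was 10.2% in wild type and 9.30% in *Lmx1a*-/- embryos, and a gene picked for its small p value tends to have a low one. The wild-type value farthest from the others, 259.5 CPM in embryo 1, belonged to the wild-type library with Y-linked transcripts and without *Xist*. Among the 6 libraries with Y-linked transcripts, the log2 fold change was -1.70 (SE 0.13, 1 embryo against 5). That value rests on the wild-type library with the highest *Socs2* level. With the *Xist* level as a covariate the log2 fold change was -1.74 (SE 0.12), and with the choroid plexus markers as a covariate it was -1.46 (SE 0.14).

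**Figure D1:**
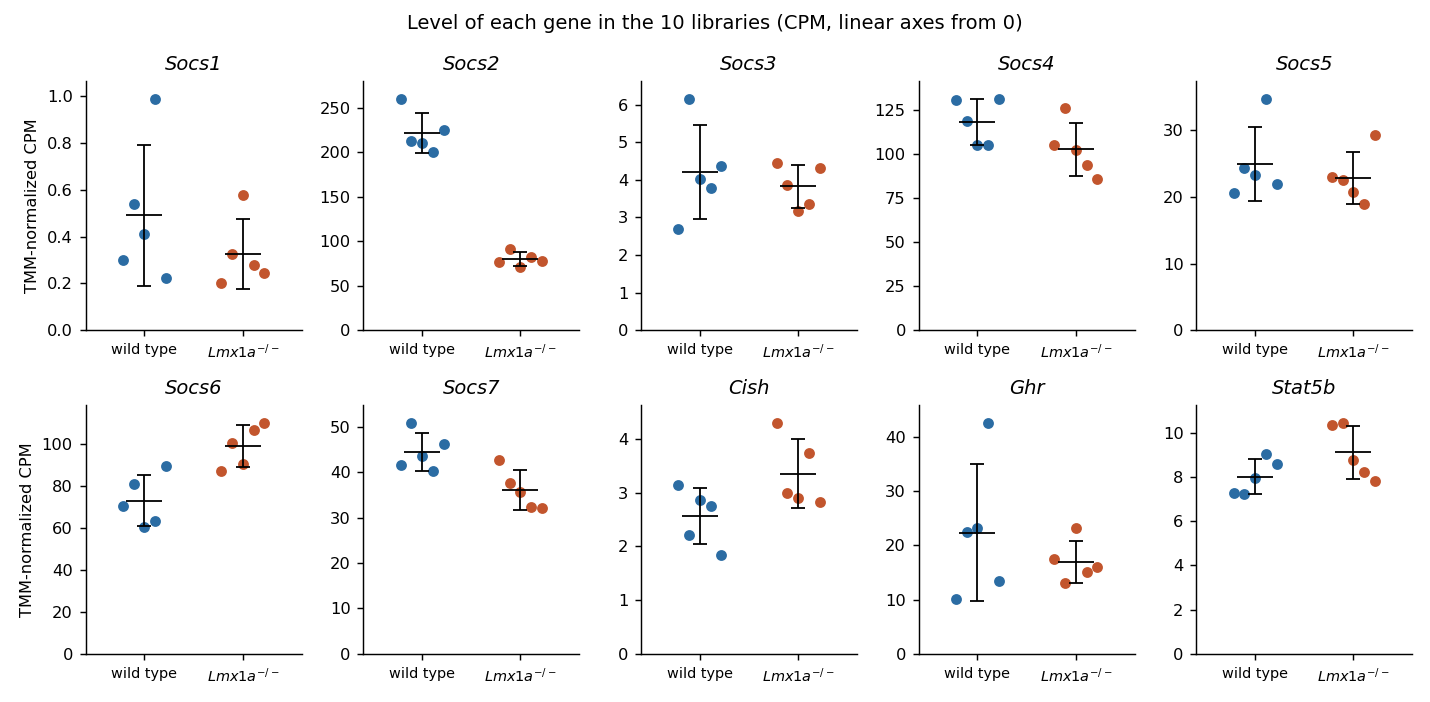
Levels of the 10 genes in TMM-normalized CPM on linear axes from 0, 1 panel a gene, with a point for each of the 5 wild-type and 5 *Lmx1a*-/- libraries and the mean with SD as a line and bars. The wild-type and mutant points of *Socs2* are far apart, 201 to 259.5 against 71.5 to 91.5 CPM, while those of each of the other 9 genes overlap.

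To set the genes against each other, CPM were divided by the exon length of each gene in kb, taken over all its annotated transcripts. On this scale *Socs2* was the most abundant of the 10 in wild type, at 23.3 ± 2.38 CPM per kb (SD, n = 5). *Socs4* came next at 17.2 ± 1.86 CPM per kb. *Socs2* was above *Socs4* in 5 of 5 wild-type libraries, and their ranges did not overlap, with the lowest *Socs2* value at 21.1 and the highest *Socs4* value at 19 CPM per kb. *Socs6* at 6.44 and *Socs7* at 6.13 CPM per kb followed and did not differ beyond their spread. The next in order were *Socs5* at 3.89, *Ghr* at 2.47, *Socs3* at 1.45 and *Stat5b* at 1.45 CPM per kb, each overlapping its neighbor in the order. *Cish* at 0.399 and *Socs1* at 0.169 CPM per kb were the least abundant, and their ranges overlapped as well.

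The order was different in the *Lmx1a*-/- CH. *Socs4* led at 14.9 ± 2.18 CPM per kb and was above the next gene in 5 of 5 libraries. *Socs6* at 8.74 ± 0.877 and *Socs2* at 8.41 ± 0.783 CPM per kb came after it, with *Socs6* the higher of the pair in 3 of 5 libraries and their ranges overlapping. *Socs7* at 4.97 and *Socs5* at 3.56 CPM per kb overlapped too. The lower part of the order held *Ghr* at 1.88, *Stat5b* at 1.65, *Socs3* at 1.32, *Cish* at 0.521 and *Socs1* at 0.112 CPM per kb. By its mean *Socs2* thus stood in the third place and not the first, though it was not separated from *Socs6*. The lowest places stayed with *Cish* and *Socs1*. Exons that the CH seldom uses would lower a gene's value on this scale. Whether they do so equally in both genotypes cannot be read from counts per gene.

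**Figure D2:**
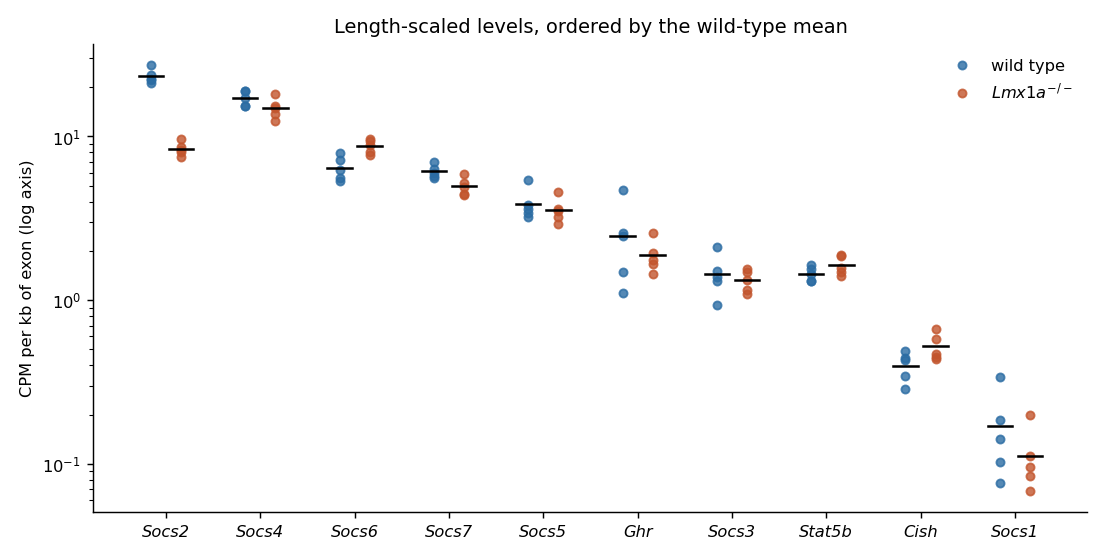
Length-scaled levels in CPM per kb of exon on a log axis, 1 point a library and a line at the mean, with the 10 genes ordered by their wild-type mean. *Socs2* stands first in wild type at 23.3 CPM per kb. In *Lmx1a*-/- embryos its mean, 8.41 CPM per kb, comes after those of *Socs4* and *Socs6*, but its range overlaps that of *Socs6*.

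Taken as shares of the summed length-scaled level of the 8 family genes, *Socs2* made up 39.5 ± 2.49% in wild type, with a range of 37.2% to 43.3%. In *Lmx1a*-/- libraries it made up 19.8 ± 1.03%, with a range of 18.7% to 21.2%. The share of *Socs4* stood at 29.1 ± 1.25% in wild type and 34.9 ± 3.30% in mutants, and that of *Socs6* at 10.9 ± 1.31% and 20.6 ± 2.48%. A share depends on the other members, so the lower *Socs2* alone raises every other share. The sum itself was 58.9 ± 4.04 CPM per kb in wild type and 42.5 ± 2.85 CPM per kb in mutants, or 72.2% of wild type. Without *Socs2* it was 35.6 ± 2.66 and 34.1 ± 2.22 CPM per kb, or 95.8%, and the ranges overlapped. The difference in the family's summed level thus lay mostly in *Socs2*.

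Of the 10 genes, *Socs2* was called lower and *Socs6* was called higher in the fit across all genes, at a false discovery rate (FDR) under 0.1. In that fit 4.02% of all genes tested were called, 2.29% lower and 1.72% higher. *Socs2* was the only 1 of the 10 whose libraries did not overlap between genotypes, which was so for 4.44% of all genes tested, 2.27% lower and 2.17% higher. Nothing is read from these counts, since the contrast served to choose the genes.

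*Socs6*, whose product binds receptor tyrosine kinases such as Kit more than cytokine receptors, had the second largest difference relative to its SE. In wild-type embryos 1 to 5 it stood at 70.8, 81.3, 60.4, 63.6 and 89.5 CPM. Levels in *Lmx1a*-/- embryos 1 to 5 were 87.3, 101, 90.6, 107 and 110.1 CPM. The groups overlapped in a single pair of libraries, since wild-type embryo 5 at 89.5 CPM was above *Lmx1a*-/- embryo 1 at 87.3 CPM. The means were 73.1 ± 12.2 and 99.2 ± 9.96 CPM, and the log2 fold change was 0.44 (SE 0.11). The call was kept in 4 of the 10 fits that left out 1 embryo and was lost without wild-type embryo 1, 3 or 4 or without *Lmx1a*-/- embryo 2, 4 or 5. It was also lost with either covariate and among the libraries with Y-linked transcripts, where the log2 fold change was 0.48 (SE 0.16). The fold changes over these alternatives stayed between 0.37 and 0.69. Processed pseudogenes lie inside the span of *Socs6* (ENSMUSG00000056153), and how reads shared with them were counted was not tested.

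*Socs7* (chromosome 11, 97362551 to 97398542), which with *Socs6* forms a subfamily and binds adaptors such as Nck, stood lower in mutants without passing the threshold. In wild-type embryos 1 to 5 it was at 41.7, 50.8, 43.6, 40.3 and 46.3 CPM. The *Lmx1a*-/- embryos 1 to 5 had 42.8, 37.6, 35.6, 32.4 and 32.1 CPM. Only *Lmx1a*-/- embryo 1 lay within the wild-type range, and the other 4 mutant libraries were below every wild-type library. The log2 fold change was -0.30 (SE 0.10). It passed the threshold in only 1 of the 10 fits that left out 1 embryo, that without *Lmx1a*-/- embryo 1, at -0.37. Over these 10 fits the log2 fold change lay between -0.37 and -0.26.

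*Socs4* (chromosome 14, 47276931 to 47296102) and *Socs5* (chromosome 17, 87107679 to 87137839) form another subfamily, which acts on the EGF receptor. *Socs4* measured 131, 119, 105, 105 and 131 CPM in wild-type embryos 1 to 5. It stood at 105, 126, 102, 93.8 and 85.7 CPM in *Lmx1a*-/- embryos 1 to 5, with a log2 fold change of -0.20 (SE 0.11). The 2 lowest values were those of *Lmx1a*-/- embryos 4 and 5, and the other mutant libraries lay among or close to the wild-type libraries. *Socs5* stood at 20.6 to 34.6 CPM in wild type, with a median of 23.3 CPM, and at 18.9 to 29.3 CPM in mutants, with a median of 22.6 CPM. Its log2 fold change was -0.12 (SE 0.16), and the ranges overlapped from 20.6 to 29.3 CPM, with the highest library a wild-type and the lowest a mutant one.

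*Socs1* (chromosome 16, 10782240 to 10785536) and *Socs3* (chromosome 11, 117966079 to 117970047) encode the strongest inhibitors of the family, which can block JAK activity directly, and both were scarce. *Socs1* had 6 to 19 counts a library. Its level was 0.222 to 0.986 CPM in the wild type and 0.199 to 0.579 CPM in mutants, with a log2 fold change of -0.58 (SE 0.57), an error as large as the difference. No difference in *Socs1* could be detected at this depth. *Socs3*, the usual feedback gene of STAT3, measured 2.69, 6.13, 4.03, 3.79 and 4.36 CPM in wild-type embryos 1 to 5. Mutant embryos 1 to 5 measured 4.46, 3.86, 3.17, 3.35 and 4.31 CPM. The 5 mutant libraries lay inside the wild-type range, and the log2 fold change was -0.13 (SE 0.24). Without wild-type embryo 2, the highest, it was 0.037.

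*Cish* (chromosome 9, 107296026 to 107302784), the nearest relative of *Socs2* and a classical STAT5 target, had a fold change of the opposite sign that did not pass the threshold. It measured 3.14, 2.21, 2.85, 2.75 and 1.85 CPM in wild-type embryos 1 to 5. For mutant embryos 1 to 5 the levels were 4.29, 2.99, 2.90, 3.74 and 2.82 CPM. Of the mutant libraries, 3 lay inside the wild-type range and the other 2 were above it, and the log2 fold change was 0.39 (SE 0.24). *Gm17040* and *Gm17041* overlap *Cish* on the opposite strand, and the strand setting of the counting is not given in the sources used here. The fold change of *Cish* was positive in all 22 alternatives, from 0.08 to 0.47, and that of *Socs2* was negative in all 22, from -1.74 to -1.41. The lowest *Cish* value, 0.08 under the *Xist* covariate, had an SE of 0.42. These alternatives reuse the same libraries, and the stricter FDR threshold leaves each fold change unchanged, so equal signs are no independent support.

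*Ghr* (chromosome 15, 3317760 to 3583492), which encodes the receptor that *Socs2* restrains, was the most uneven gene of the group apart from *Socs1*. In wild-type embryos 1 to 5 it stood at 10.04, 22.4, 23.2, 42.6 and 13.4 CPM, a coefficient of variation of 56.6%. In *Lmx1a*-/- embryos 1 to 5 it stood at 17.5, 13.04, 23.3, 15.1 and 16.04 CPM, a coefficient of variation of 22.8%. All mutant libraries lay inside the wild-type range. The log2 fold change was -0.39 (SE 0.31), and it was 0.76 among the libraries with Y-linked transcripts, since wild-type embryo 1 had the lowest level of all. No direction can be given for *Ghr* from these libraries.

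*Stat5b* (chromosome 11, 100780731 to 100850724), the factor that carries the growth hormone signal to the nucleus, measured 7.28, 7.22, 7.97, 9.03 and 8.61 CPM in wild-type embryos 1 to 5. Mutant embryos 1 to 5 measured 10.3, 10.4, 8.75, 8.22 and 7.83 CPM. *Lmx1a*-/- embryos 1 and 2 were above the wild-type range and the other 3 lay inside it. The log2 fold change was 0.18 (SE 0.15). Reads shared with its close paralog *Stat5a* were counted as HTSeq resolved them.

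Genes around the family were taken from 7 lists of 91 genes in all, of which 74 were tested. For short they are called pathway genes. The lists reach beyond JAK and STAT signaling, for example to *Igf2*, the insulin receptor adaptor *Grb14* and *Asb4*, which was listed for its SOCS box. Of the 74 tested, 5 were called lower and 0 higher by edgeR's quasi-likelihood test, or 6.76% against 4.02% of all genes tested. None of the 5 was a JAK or STAT gene. The median log2 fold change of the 74 genes was -0.12, and that of all genes tested was near 0. The likelihood ratio test and DESeq2 each called 2 of the 74 higher. None of the 5 lower calls held with either covariate, and 1, *Asb4*, held among the libraries with Y-linked transcripts. Their log2 fold changes under these covariates, first *Xist* and then choroid plexus, were -1.60 and -2.11 for *Igf2*, -1.81 and -2.53 for *Grb14*, and -2.17 and -1.15 for *Asb4*. They were -0.56 and -0.31 for *Elob* and -0.55 and -0.24 for *Bcl2l1*, so all 5 genes kept a negative sign.

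Among 24 ligands and receptors, 17 were tested and 1 was lower. *Igf2*, a growth factor of embryonic tissues and meninges, measured 20.6, 18.9, 22.9, 56.8 and 13.7 CPM in wild-type embryos 1 to 5 and at 7.88, 4.13, 9.54, 4.15 and 5.84 CPM in *Lmx1a*-/- embryos 1 to 5. The groups did not overlap, and *Igf2* fell by 2.07 on the log2 scale (SE 0.37, FDR 0.0102 by edgeR's quasi-likelihood test). The summed markers of meninges and mesenchyme stood at 316 to 907 CPM in the wild type and 244 to 509 CPM in mutants, with *Dcn* and *Lum* called lower of 9, and their part in the result was not tested. The interferon gamma receptor chain *Ifngr2* (log2 fold change 0.47, SE 0.14), the prolactin receptor *Prlr* (-1.31, SE 0.46) and *Igf1* (-1.03, SE 0.51) did not pass, with edgeR quasi-likelihood FDR of 0.109, 0.173 and 0.336. Growth hormone, prolactin and oncostatin M, named here after their values were seen, had 0 counts for *Gh*, *Prl* and *Osm* in every library. A count of 0 allows up to 3 counts, or 0.0831 to 0.163 CPM a library.

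None of the 4 JAK genes and none of the 6 other STAT genes was called. *Jak2*, the kinase of the growth hormone receptor, came nearest. It stood at 43.4 to 47.4 CPM in the wild type and 47.9 to 70.6 CPM in mutants, so the libraries did not overlap. Its log2 fold change was 0.34 (SE 0.10, FDR 0.106 by edgeR's quasi-likelihood test). *Tyk2* and *Jak3* had log2 fold changes of -0.12 and -0.09. *Stat5a*, the paralog of *Stat5b*, stood at 0.790 ± 0.359 CPM in the wild type and 0.224 ± 0.258 CPM in mutants, with at most 37 counts a library and an edgeR quasi-likelihood FDR of 0.268. *Stat6* had a log2 fold change of -0.41 (SE 0.33). The groups of *Stat5a* overlapped.

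Of 13 other inhibitors and adaptors, 1 was lower. *Grb14*, an adaptor that inhibits the insulin receptor, fell from 10 ± 4.76 to 2.704 ± 1.33 CPM (log2 fold change -1.89, SE 0.40, FDR 0.0281 by edgeR's quasi-likelihood test). Its groups overlapped, since wild-type embryo 2 was at 3.56 CPM and *Lmx1a*-/- embryo 5 at 4.80 CPM. *Grb10*, its imprinted relative, was far more abundant, and stood at 738 ± 44.5 CPM in the wild type and 823 ± 34.6 CPM in mutants (log2 fold change 0.16, SE 0.06, FDR 0.219 by edgeR's quasi-likelihood test). *Pias4* and *Pias3*, which inhibit STAT factors as SUMO ligases, had log2 fold changes of -0.48 (SE 0.19) and -0.56 (SE 0.23) and did not pass.

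Of the 6 ubiquitin ligase partners of the SOCS box, *Elob*, which encodes elongin B, was lower at 60 ± 6.78 against 77.4 ± 9.28 CPM (log2 fold change -0.37, SE 0.10, FDR 0.0907 by edgeR's quasi-likelihood test). The call was kept in 2 of the 10 fits that left out 1 embryo. *Eloc*, which encodes its partner elongin C, had a log2 fold change of 0.26 (SE 0.09) that did not pass, with an edgeR quasi-likelihood FDR of 0.158. *Cul5*, the cullin of this complex, stood at 122 ± 7.40 CPM in the wild type and 127 ± 7.57 CPM in mutants. *Rnf7*, the ring protein that works with it, stood at 39.9 ± 3.33 and 42.1 ± 8.79 CPM.

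Of the other known STAT5 or STAT3 targets, 10 of 11 were tested and 1 was lower. *Bcl2l1*, which encodes the survival factor Bcl-xL, fell from 31.7 ± 4.54 to 21.4 ± 4.00 CPM (log2 fold change -0.57, SE 0.15, FDR 0.0674 by edgeR's quasi-likelihood test), and the call was kept in 3 of the 10 fits that left out 1 embryo. *Pim1*, *Myc* and *Fos* had log2 fold changes of -0.34 (SE 0.16), -0.55 (SE 0.27) and -0.43 (SE 0.57) and did not pass. *Cish* and *Socs3*, described above as a STAT5 target and the usual feedback gene of STAT3, were not called either. The other family genes, among them *Socs2*, which was called lower, were not sorted by whether they are STAT targets.

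Of 27 further genes with a SOCS box, 18 were tested and 1 was lower. *Asb4*, an ankyrin repeat protein of imprinted expression, measured 116, 128, 57.1, 67.2 and 122 CPM in wild-type embryos 1 to 5 and at 18.95, 19.02, 19.3, 19.9 and 43.0 CPM in *Lmx1a*-/- embryos 1 to 5. The groups did not overlap, and *Asb4* fell by 2.03 on the log2 scale (SE 0.28, FDR 0.00249 by edgeR's quasi-likelihood test). Its call was kept in each of the 10 fits that left out 1 embryo, as were those of *Igf2* and *Grb14*. *Wsb1* stood at 147 ± 4.90 and 166 ± 8.86 CPM, with libraries that did not overlap and an edgeR quasi-likelihood FDR of 0.171. *Asb8* and *Spsb1* had log2 fold changes of -0.26 (SE 0.11) and -0.66 (SE 0.30) and did not pass.

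**Figure D3:**
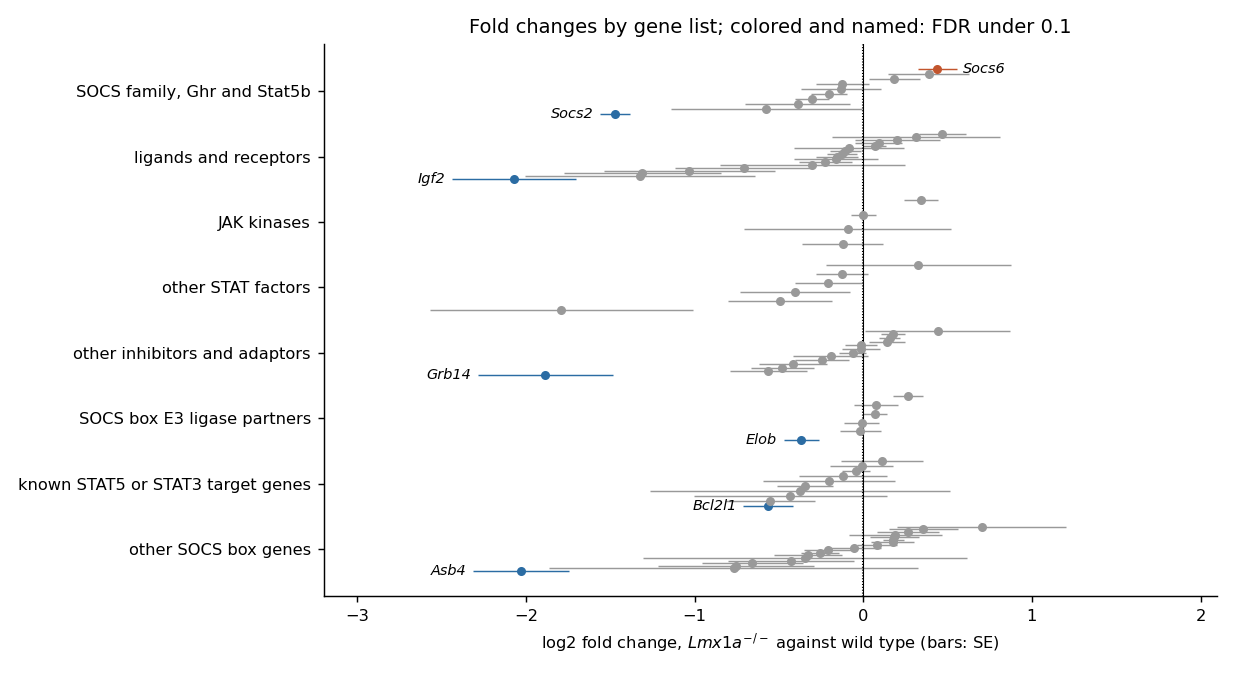
Log2 fold change of *Lmx1a*-/- against wild type for each tested gene of the SOCS group and of the 7 pathway lists, with the SE as bars, blue and red for genes called lower and higher at an FDR under 0.1 and gray for the rest. *Socs2* at -1.47 stands far to the left of the other genes of its group, of which *Socs1* at -0.58 comes next. The 5 genes called from the 7 lists are all lower, and none is a JAK or STAT gene.

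The neighborhood of *Socs2* on chromosome 10 was searched for genes that start within 1 Mb of its start. Of 50 such genes, 18 were tested and 1 was called lower and 0 higher, or 5.56% against 4.02% of all genes tested. The median log2 fold change of the 18 genes was -0.06. *5730420D15Rik*, a noncoding RNA that starts 0.195 kb away on the opposite strand, stood at 1.23 ± 0.343 CPM in the wild type and 0.702 ± 0.459 CPM in mutants. Its log2 fold change was -0.80 (SE 0.47, FDR 0.428 by edgeR's quasi-likelihood test), and its level was too low to tell whether it moved with *Socs2*. *Cradd*, the nearest tested gene on the other side, an adaptor of cell death signaling, stood at 10.03 ± 2.57 and 9.33 ± 2.16 CPM (log2 fold change -0.10, SE 0.21). The gene called was *Plxnc1*, a semaphorin receptor gene that starts at -472.3 kb, on the left of the plot of this region. The paper names *Plxnc1*, *Asb4* and *Rdh10* among the genes that public in situ images placed specifically or mainly in the CH. Its finding that they were lower in mutants rests on these same libraries. *Plxnc1* fell from 79.5 ± 12.3 to 44.1 ± 5.06 CPM (log2 fold change -0.85, SE 0.12, FDR 0.00249 by edgeR's quasi-likelihood test), without overlap of the libraries. The call of *Plxnc1* was kept in each of the 10 fits that left out 1 embryo and was lost with either covariate, where the log2 fold change was -0.98 (*Xist*) and -0.59 (choroid plexus).

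**Figure D4:**
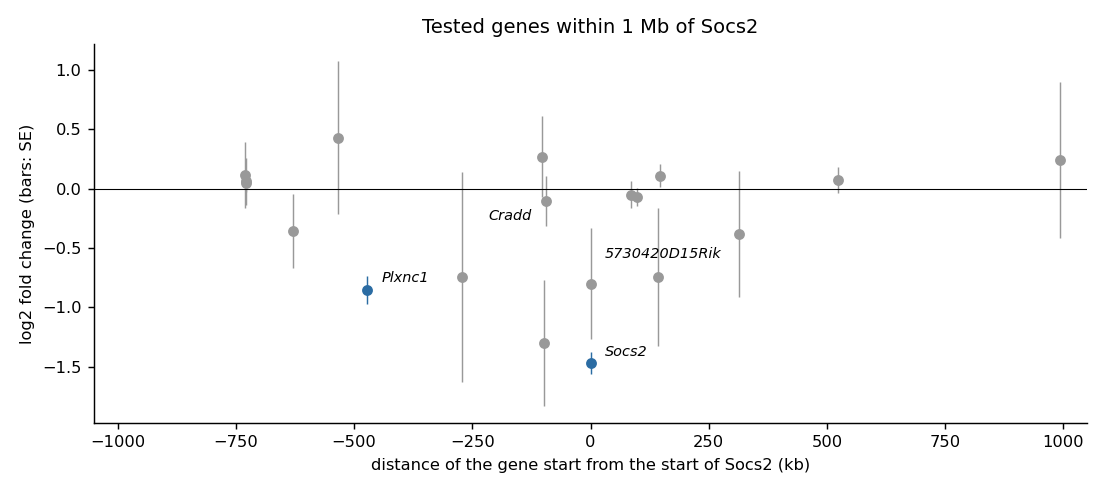
Log2 fold change of the tested genes that start within 1 Mb of *Socs2*, with the SE as bars, against the distance of their start in kb, on which *Socs2* stands at 0. *Socs2* at -1.47 and *Plxnc1* at -0.85, the genes in blue, were called lower, and the bars of *5730420D15Rik* are several times as long as those of *Socs2*.

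The profile of *Socs2* over the 10 libraries was compared with that of every other tested gene by the root mean square difference of log2 CPM after each gene's own mean was taken off. The median distance over all genes was 0.838. The 5 nearest genes were *Eya4* (0.183), *Optn* (0.246), *Mical2* (0.257), *Rdh10* (0.277) and *Acsf2* (0.277), each lower in the mutants. *Eya4*, a transcription cofactor and phosphatase gene, measured 122, 137, 103, 119 and 134 CPM in wild-type embryos 1 to 5 and at 39.1, 59.3, 41.5, 56.2 and 52.8 CPM in *Lmx1a*-/- embryos 1 to 5. *Rdh10*, which makes retinaldehyde, stood at 25.5 CPM in the wild type and 9.14 CPM in mutants on average. Among the SOCS group itself, the genes nearest to *Socs2* were *Socs7*, at rank 1140 of all genes, and *Socs4*, at rank 1760. This likeness is set mostly by the difference between genotypes.

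After the genotype means were taken off and each gene was divided by the SD that was left, other genes were the nearest to *Socs2*. They were *Commd8* (0.237), *Scamp1* (0.316), *Bcr* (0.365), *Thap12* (0.388) and *Timm8a1* (0.398), against a median of 1.42 over all genes. These 5 genes had log2 fold changes between -0.34 and 0.39 across genotypes. Of the SOCS group, *Socs4* was the nearest on this measure, at 0.844 and rank 631. The list of nearest genes was thus a different one after both steps, and none of the 5 genes of the first measure was among the 5 of the second. Which of the steps changed the list was not tested.

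**Figure D5:**
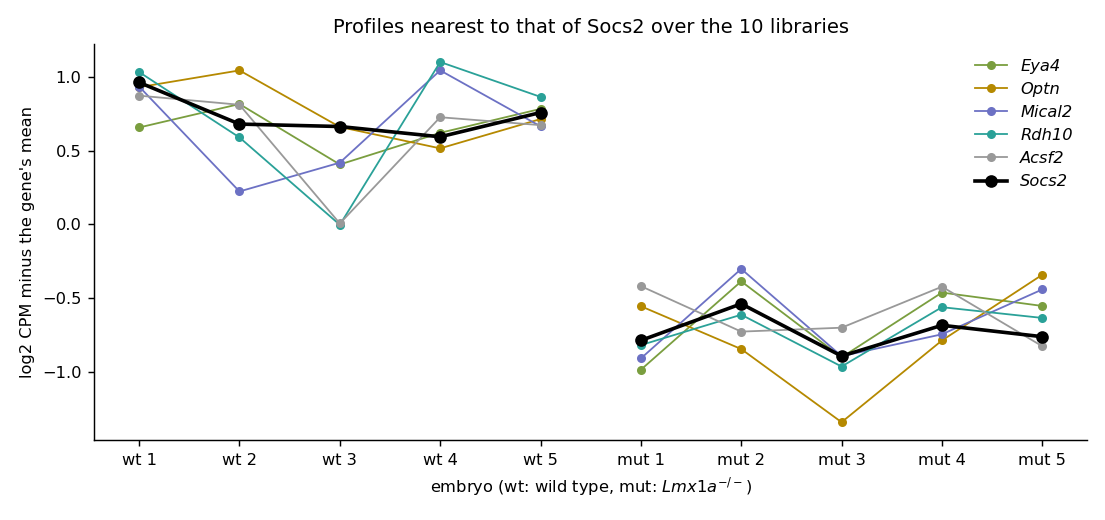
Log2 CPM of *Socs2* (black) and of the 5 genes with the most similar profile, each minus its own mean, over the 5 wild-type (wt) and 5 *Lmx1a*-/- (mut) embryos; lines join embryos of 1 genotype for legibility only. The genes share the step between genotypes, and *Eya4*, at a distance of 0.183, follows *Socs2* most closely.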

How the data were processed

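RNA of 5 wild-type and 5 *Lmx1a*-/- CH samples, 1 library an embryo, was sequenced. The authors checked reads with FastQC 0.11.8, trimmed them with Trimmomatic, aligned them to GRCm38 with STAR 2.7.1a and counted them per Ensembl gene with HTSeq 0.11.2, and the deposited values are these raw counts without filtering or scaling. The HTSeq strand setting is not given in the sources used here. Of 52508 rows, 281 exact repeats were dropped, which left 52227 genes. Positions and exon lengths come from GENCODE M21 on GRCm38, counted from 1.

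The test took the 21664 genes that reached 10 counts or more in 3 libraries or more, and was run in R 4.3.3 with edgeR 4.0.16 and limma 3.58.1. The fit used TMM scaling, a trended dispersion and edgeR's quasi-likelihood test without covariates over all 10 libraries, with Benjamini-Hochberg FDR under 0.1 as the threshold. The SE is the size of the log2 fold change over the root of its F statistic. Log2 CPM for profiles had a prior count of 2. The members, lists and markers were chosen with earlier results of these data known, so counts of calls stand beside the share of all genes called. Named are all members, genes past the threshold and the 3 others with the smallest p of each list, genes called near *Socs2* with the nearest tested gene on each side, and the 5 genes nearest in each profile measure. A gene that this rule names is not reported here. Alternatives were the likelihood ratio test, DESeq2 1.42.0, edgeR's newer dispersion method, RLE or no scaling, other filters, an embryo number block, *Xist* or choroid plexus covariates, the libraries with Y-linked transcripts, an FDR of 0.05 and each embryo left out. Scripts were tested on simulated data. Totals of 19145952 to 36462780 counts a library limit scarce genes, and counting error is part of the spread between embryos.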

Additional observations from a re-analysis of the deposited data

Results flagged for a closer look

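*Socs5* stood at 34.6 CPM in wild-type embryo 4, while the next wild-type library was at 24.3 CPM. The gap is 0.738 of the range of the 5 wild-type libraries, above the critical value of Dixon's test for 5 values, 0.71. Of the 20 groups looked at, 10 genes in 2 genotypes, this was the only one past its critical value, and chance alone gives about 1 in 20. Without this embryo the log2 fold change of *Socs5* was 0.015.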

How the results depend on the processing

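The log2 fold change of *Socs2*, which this contrast picked, lay between -1.74 and -1.41 over the 22 alternatives on the same libraries, which is no independent support. *Socs6* kept its direction in all of them and its call in 12. Under the *Xist* covariate the log2 fold change reversed to 0.16 for *Socs1*, 0.54 for *Socs3*, 0.18 for *Socs5* and 0.86 for *Ghr*. Among the libraries with Y-linked transcripts it reversed to 0.50, 0.14 and 0.76 for *Socs3*, *Socs5* and *Ghr*, and under the choroid plexus covariate to 0.0057 for *Socs3*. It reversed to 0.037 for *Socs3* without wild-type embryo 2 and to 0.015 for *Socs5* without wild-type embryo 4. None of these genes was called, and the cause was not tested. The covariates correlated with genotype (r = -0.829 and -0.772 over 10 libraries), so little of the genotype difference is left to test.

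The calls over all genes, 497 lower and 373 higher, became 805 lower under the likelihood ratio test, 953 and 741 under DESeq2, 26 and 1 under the *Xist* covariate, 19 and 26 under the choroid plexus covariate, 86 and 44 among the libraries with Y-linked transcripts, and 251 and 197 at an FDR under 0.05. Pathway genes called lower, 5 in the fit reported, were 3 with library size only, 0 under either covariate, 1 among the libraries with Y-linked transcripts and 3 at an FDR under 0.05. Those called higher, 0 in the fit reported, were 2 under the likelihood ratio test, DESeq2, the newer dispersion method and the stricter filter, and 1 with library size only. Members called higher, 1 in the fit reported, were 0 under either covariate, among the libraries with Y-linked transcripts and at an FDR under 0.05. *Plxnc1* was the 1 gene near *Socs2* called, and 0 were called under either covariate. At an unadjusted p under 0.05 edgeR's quasi-likelihood test gave 3545 genes, 2040 under the *Xist* covariate and 1775 under the choroid plexus covariate.

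Leaving out 1 embryo gave 261 to 604 genes lower, 190 to 455 higher, 1 to 2 members lower, 0 to 1 higher, 3 to 7 pathway genes lower, 0 to 1 higher, and 1 to 1 gene near *Socs2* lower. By library left out, 291 genes were lower and 213 higher without wild-type embryo 1, 315 and 236 without wild-type embryo 2, 261 and 190 without *Lmx1a*-/- embryo 4, and 308 and 238 without *Lmx1a*-/- embryo 5, and 328 were lower without *Lmx1a*-/- embryo 2. Pathway genes lower were 3 without wild-type embryo 1, 2 or 4 or *Lmx1a*-/- embryo 2 or 5. The log2 fold change of *Socs3* lay between -0.26 and 0.037 and that of *Socs5* between -0.22 and 0.015.

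With the embryo number as a replicate block, 353 genes were lower and 248 higher, 3 pathway genes were lower, and *Socs2* was at -1.47. The numbers only name embryos. Same-numbered embryos correlated between -0.0985 and 0.0133 in their deviations, and 0 of 5 wild-type embryos correlated best with the mutant of their own number. Depth limits *Socs1*, *Stat5a* and *5730420D15Rik*.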
